A study of Mus musculus with 6 samples.

Results

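The genes described are Bcl2, Bcl2l1, Mcl1 and Bcl2l2, 4 survival genes of the Bcl2 family among 22380 protein-coding genes annotated in GENCODE vM1 on mouse assembly mm9 (NCBIM37). They were chosen by name, and a p53 peak was assigned to a gene when it overlapped the gene body extended by 10 kb on both sides. The survival proteins of this family sit on the outer mitochondrial membrane and hold back the effectors Bax and Bak1, which would otherwise make the membrane leak and start apoptosis. BH3-only proteins such as Puma (Bbc3) and Noxa (Pmaip1) bind and neutralise the survival proteins, and p53 is best known in this pathway for switching on those death-promoting genes. Bcl2 keeps resting lymphocytes alive, Bcl2l1 encodes Bcl-xL, Mcl1 encodes a short-lived protein needed by B and T lymphocytes, and Bcl2l2 encodes Bcl-w.

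The data were 5 lists of p53 ChIP-seq peaks, regions where DNA fragments recovered with an antibody to p53 pile up. B cells, selected with the surface marker B220, and the non-B cells left after that selection came from spleens of Trp53+/+ C57/Bl6 mice 8 weeks of age, either untreated (mock) or irradiated (IR) with a whole-body dose of 7 Gy and taken 4 h later. The fifth list came from unsorted spleen cells of Trp53-/- mice of the same strain, 4 h after 7 Gy, and served as the background of the antibody in cells that lack p53; the age of these mice was not given. Chromatin was pooled from several animals and each group had 1 library, so no difference between lists could be set against a spread between replicates and no test was made. The non-B cells are a mixture enriched in T cells, and peak lists hold no marker by which the labelled cell types could be checked. A weaker peak from such bulk chromatin may mean fewer cells with p53 at the site or less p53 per cell, and these cannot be told apart.

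Each peak had 1 value deposited by the authors, taken as −log10 of a p-value, which was used only to rank peaks within a list. A rank of 1 is the highest value, and the percentile is the percentage of peaks in the list that ranked at or below the peak. The lists held 1413 peaks in mock B cells, 24507 in irradiated B cells, 712 in mock non-B cells, 21400 in irradiated non-B cells and 83 in Trp53-/- spleen. Read depth is unknown, so a site that is not listed was not called at that depth and may still have been bound.

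After irradiation each of the 4 genes had at least 1 peak within 10 kb in both compartments, while in mock only Mcl1 had any, with 1 low peak in each list; at a value of at least 8 the mock count was 0 in both lists. The count was 4 of 4 genes in irradiated B cells, where 53.4% of protein-coding genes had a peak, and 4 of 4 in irradiated non-B cells, against 51.8%. It was 1 of 4 in mock B cells, against 4.45% of protein-coding genes, and 1 of 4 in mock non-B cells, against 2.27%. In Trp53-/- spleen it was 0 of 4, where 0.125% of genes had a peak. No Trp53-/- peak lay on chromosome 1 or 14, and the nearest to Bcl2l1 and Mcl1 were 54.1 and 66.7 Mb away on chromosomes 2 and 3.

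The 4 genes together held 35 peaks in irradiated B cells and 30 in irradiated non-B cells, which fell into 42 separate sites. Bcl2 had 19 peaks in irradiated B cells and 16 in irradiated non-B cells, Bcl2l1 had 6 and 4, Mcl1 had 8 and 9, and Bcl2l2 had 2 and 1. These numbers depend on gene length, since the window was 196 kb at Bcl2, 84.4 kb at Bcl2l1, 24.5 kb at Mcl1 and 24.9 kb at Bcl2l2. Per 100 kb of window, Mcl1 was the most densely occupied of the 4, with 32.7 peaks in irradiated B cells and 36.8 in irradiated non-B cells. Bcl2 had 9.69 and 8.16 peaks per 100 kb, Bcl2l1 7.11 and 4.74, and Bcl2l2 8.05 and 4.02. Over the windows of all protein-coding genes the values were 1.90 and 1.68 per 100 kb. In irradiated B cells 0.0760% of protein-coding genes had as many peaks as Bcl2, that is 17 genes with Bcl2 itself counted. Per 100 kb of window, 6.32% were as densely occupied as Bcl2. For Mcl1, 1.55% had as many peaks and 0.139% were as densely occupied.

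**Figure D1:**
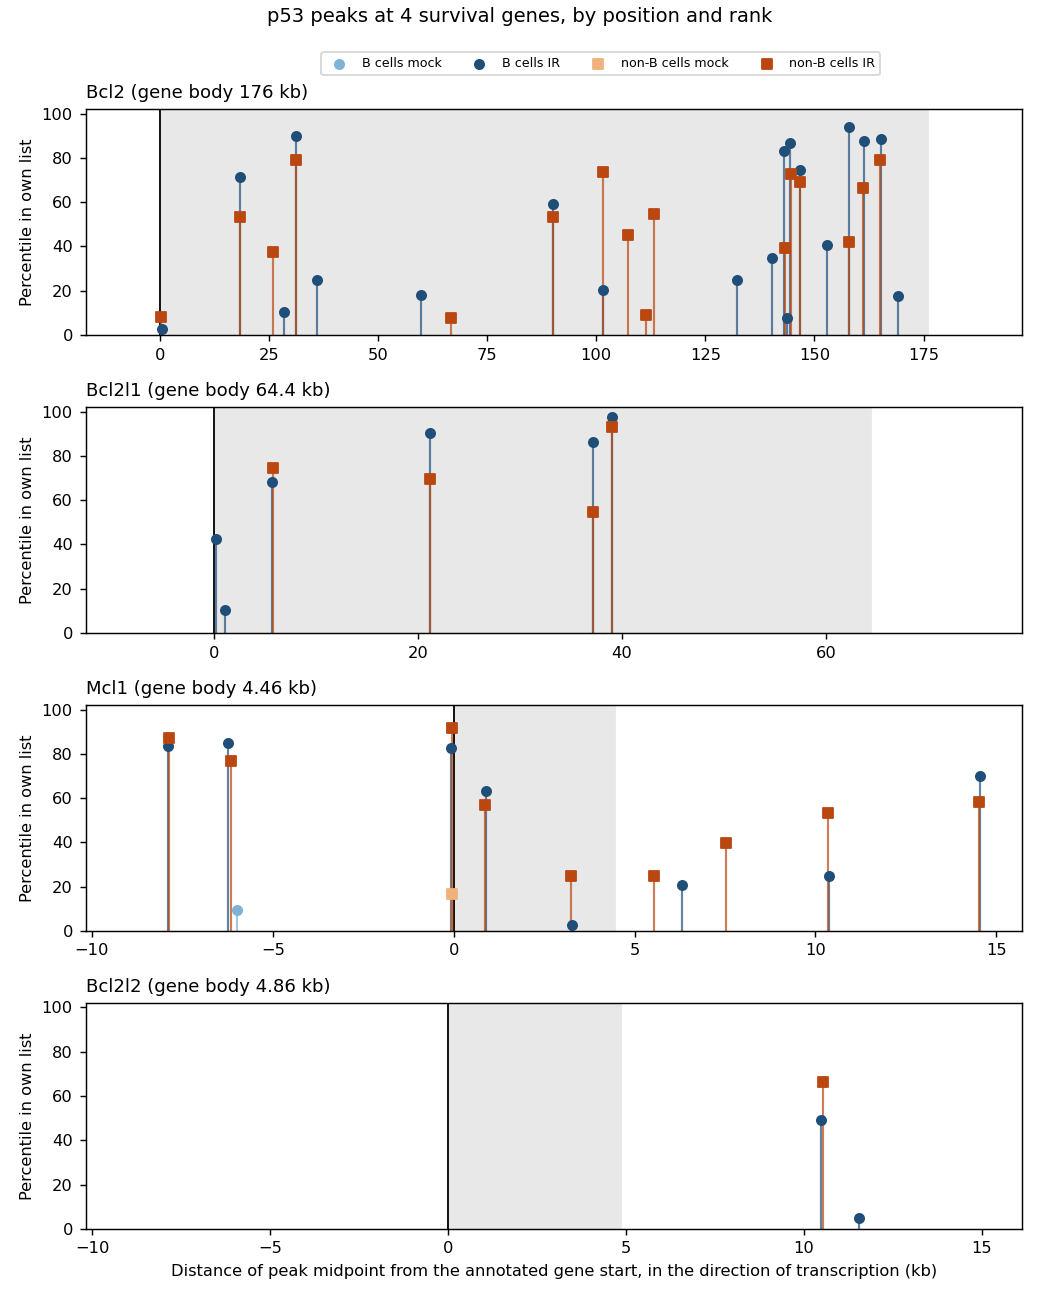
Each symbol is a p53 peak at Bcl2, Bcl2l1, Mcl1 or Bcl2l2, placed by the distance of its midpoint from the annotated gene start (x axis, kb, in the direction of transcription) and by its percentile in its own list (y axis); circles are B cells, squares non-B cells, dark colours IR, pale colours mock, and grey marks the gene body. The highest peaks of Bcl2 and Bcl2l1 lay deep inside the gene, those of Mcl1 at and upstream of the start, and those of Bcl2l2 beyond its end; there is no Trp53-/- peak.

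Bcl2l1 held the highest-ranked peak of the 4 genes by value, whereas by peak width Mcl1 stood first, at percentiles 99.2 and 99.5 in irradiated B and non-B cells. That widest peak lay at the window edge, 14.5 kb from the Mcl1 start, and its nearest annotated start was that of Adamtsl4. Bcl2l1 (ENSMUSG00000007659.11) occupies 152593052 to 152657464 of chromosome 2, minus strand. Its highest peak by value sat in an intron, 39.1 kb downstream of the gene start. In irradiated B cells it spanned 152617888 to 152618941 with a value of 133.25, rank 628 of 24507 (percentile 97.4). In irradiated non-B cells it spanned 152618048 to 152618754 with a value of 73.5, rank 1463 of 21400 (percentile 93.2). It was not listed in either mock list or in Trp53-/- spleen. It was also the only site at these genes with an unsplit p53 response element, the DNA sequence that p53 recognises, at 1 mismatch or fewer. That element is a pair of decamers, each made of 3 purines, a C, 2 bases that are A or T, a G and 3 pyrimidines. The stretch is shown because it carries the best element of the 4 genes, with the 4 central bases of each decamer (CNNG) in capitals and 30 bases of intron on either side.
Bcl2l1 intron, chr2:152618341-152618420, mm9 plus strand: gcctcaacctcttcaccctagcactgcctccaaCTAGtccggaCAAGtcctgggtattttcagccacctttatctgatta

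This element occupied 152618371 to 152618390, 33 bp from the midpoint of the irradiated B cells peak and 20 bp from that of the irradiated non-B cells peak. An unsplit element with at most 1 mismatch was found within 300 bp of the midpoint in 5.75% of all irradiated B cells peaks and 6.26% of all irradiated non-B cells peaks. Among peaks farther than 1 kb from any annotated start the shares were 8.71% and 9.87%. The consensus reads the same on both strands, so each element was counted once.

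Farther than 5 kb from the gene start, Bcl2l1 had 3 other intron sites, each listed in both compartments after irradiation and in neither mock list. The next one towards the gene start, 37.2 kb downstream of it, had a value of 50 in irradiated B cells (rank 3367) and 20.66 in irradiated non-B cells (rank 9723). The peak at 21.2 kb had 61.47 in irradiated B cells (rank 2382) and 28.59 in irradiated non-B cells (rank 6530). The peak at 5.78 kb had 28.59 in irradiated B cells (rank 7790) and 32.38 in irradiated non-B cells (rank 5455), and was the only one of the 4 shared sites with the higher percentile in non-B cells. None of these 3 held an unsplit element with at most 3 mismatches within 300 bp of its midpoint.

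At the Bcl2l1 start itself peaks were listed only in irradiated B cells. One lay at 152657077 to 152657482, 0.185 kb inside the gene and in its first intron, with a value of 17.13 (rank 14101, percentile 42.5). The other lay at 152656257 to 152656559, over an untranslated exon and 0.02 kb from the start of another annotated transcript, with a value of 9.23 (rank 21980, percentile 10.3). Both ranked below the 4 sites of the gene that the compartments shared. Thus Bcl2l1 had a promoter peak, that is a midpoint at most 5 kb before or 2 kb after any annotated transcript start, in irradiated B cells but not in irradiated non-B cells.

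Bcl2 carried the largest number of sites, 24, of which 23 lay in its single long intron. The gene (ENSMUSG00000057329.6) occupies 108434755 to 108610851 of chromosome 1, minus strand, and is 176 kb long, with 2 coding exons at its ends in the 1 annotated transcript. The peak at the gene start was among the lowest in both irradiated lists. In irradiated B cells it lay at 108610189 to 108610686 with a value of 7.32 (rank 23898, percentile 2.49), and in irradiated non-B cells at 108610454 to 108610688 with a value of 9.16 (rank 19619, percentile 8.33). No Bcl2 peak was listed in either mock list or in Trp53-/- spleen.

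The highest Bcl2 peak in irradiated B cells lay in the intron, 158 kb from the gene start and towards the 3′ end of the gene. It spanned 108452822 to 108453271 with a value of 82.55, rank 1474 of 24507 (percentile 94.0). At the same place irradiated non-B cells had a peak at 108452851 to 108453134 with a value of 16.41, rank 12412 of 21400 (percentile 42.0). This gap of 52.0 percentile points was the widest in favour of B cells among the 23 sites that both irradiated lists held. In all, 3 of the 23 sites ranked at least 25 points higher in B cells, a limit set after the values were seen, and so did 14.3% of the 17868 pairs of overlapping IR peaks in the whole lists. The stretch is shown because it lies under that peak and holds an unsplit element with 3 mismatches, its central bases in capitals as above.
Bcl2 intron, chr1:108452965-108453044, mm9 plus strand: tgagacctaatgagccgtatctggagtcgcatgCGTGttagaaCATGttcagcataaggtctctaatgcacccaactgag

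A cluster of sites surrounded this peak. The stretch of the intron from 108438520 to 108471622 is covered on the opposite strand by D630008O14Rik, annotated as an antisense transcript. Its 33.1 kb held 10 of the 19 Bcl2 peaks of irradiated B cells, or 30.2 per 100 kb, against 5.52 per 100 kb in the remaining 163 kb of the window. In irradiated non-B cells it held 6 of 16 peaks, or 18.1 per 100 kb, against 6.14 in the remainder. Of the 10 peaks in irradiated B cells, 5 were in the upper 20% of the list, and the median percentile was 78.8, against 24.6 for the 9 other peaks. In irradiated non-B cells none of the 6 reached the upper 20%, and the median was 67.8, against 49.1 for the 10 others. The stretch was singled out after its peaks were seen.

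Of the 10 sites in this stretch, 6 were listed in both irradiated lists, and each of them had the higher percentile in B cells. So did 59.8% of all pairs of overlapping IR peaks. Besides the peak described above, the peak at 143 kb from the start had a value of 44.3 in irradiated B cells (rank 4183) and 15.98 in irradiated non-B cells (rank 12991). The peak at 144 kb had 51.98 in irradiated B cells (rank 3209) and 30.94 in irradiated non-B cells (rank 5860). The peak at 147 kb had 33.54 in irradiated B cells (rank 6216) and 28.36 in irradiated non-B cells (rank 6604). These 3 lay within 4 kb of one another, and their gaps ran from 5.50 to 43.6 percentile points. The peak at 161 kb had 53.4 in irradiated B cells (rank 3058) and 26.61 in irradiated non-B cells (rank 7159). The peak at 165 kb had 55.88 in irradiated B cells (rank 2808) and 37.07 in irradiated non-B cells, where at rank 4450 it was the highest Bcl2 peak of the list. The other 4 sites, at 140, 143.6, 153 and 169 kb, were listed only in irradiated B cells, with values of 15.08, 8.68, 16.19 and 10.93. Over the whole list, 73.6% of irradiated B cells peaks overlapped an irradiated non-B cells peak.

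Outside that stretch the site at 31.1 kb from the start was the highest of Bcl2 in both lists, with a value of 59.98 in irradiated B cells (rank 2499) and 36.59 in irradiated non-B cells (rank 4498). The site at 18.3 kb had 30.68 in irradiated B cells (rank 7024) and 20.63 in irradiated non-B cells (rank 9964), and the site at 90.0 kb had 23.51 (rank 9990) and 20.51 (rank 10027). All 3 ranked higher, by percentile, in B cells. The sites from 101.5 to 113 kb, a stretch singled out after its peaks were seen, went the other way. The site at 101.5 kb, at 108509042 to 108509641, had a value of 31.46 in irradiated non-B cells (rank 5651, percentile 73.6) and 11.11 in irradiated B cells (rank 19580, percentile 20.1). At 107, 111 and 113 kb peaks were listed only in irradiated non-B cells, with values of 17.32, 9.25 and 20.75. Over the whole list, 85.3% of irradiated non-B cells peaks overlapped an irradiated B cells peak. The site at 101.5 kb was 1 of 2 shared sites that ranked at least 25 points higher in non-B cells. The other lay beyond the end of Mcl1, and 6% of all pairs did so. The remaining sites were called in 1 list each, with values of 9.23, 12.37, 11.01 and 12.24 in irradiated B cells and of 15.19 and 8.72 in irradiated non-B cells.

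Mcl1 was the only gene of the 4 with peaks without irradiation, and the only one with a promoter peak in the upper 20% of a list after it. The mock peaks, 1 in each list, were lost at a value of at least 8 and in the upper 20%, and that of B cells also without the extension of the gene body. The gene (ENSMUSG00000038612.9) occupies 95462643 to 95467099 of chromosome 3, plus strand. Over its start mock non-B cells had a peak of 79 bp at 95462565 to 95462643 with a value of 6.99, rank 595 of 712 (percentile 16.6). After irradiation the peak there spanned 95462324 to 95462800 in B cells, with a value of 43.13 (rank 4281, percentile 82.5), and 95462347 to 95462839 in non-B cells, with a value of 64.51 (rank 1783, percentile 91.7). mock B cells listed no peak at this place. The stretch below is the mock peak up to the base before the gene start, shown because it was called both with and without irradiation.
Mcl1 start, chr3:95462565-95462642, mm9 plus strand: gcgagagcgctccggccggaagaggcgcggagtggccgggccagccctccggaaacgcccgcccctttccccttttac

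The bases around it were rich in CG dinucleotides, with 62 in the 600 bp around the midpoint of the mock peak and 55 and 59 around those of irradiated B cells and irradiated non-B cells, against a median of 10 and 11 over all peaks of the 2 irradiated lists. Peaks within 1 kb of an annotated start had medians of 38 and 39. No unsplit element with at most 3 mismatches lay within 300 bp of the midpoint of any of these 3 peaks. Such an element was found in 4.84% and 4.78% of B and irradiated non-B cells peaks within 1 kb of an annotated start, and in 21.3% and 22.0% of those farther away.

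Upstream of Mcl1 were 2 high sites. The one 7.87 kb upstream had a value of 44.55 in irradiated B cells (rank 4078, percentile 83.4) and 49.74 in irradiated non-B cells (rank 2782, percentile 87.0). The one 6.24 kb upstream spanned 95455836 to 95456977 in irradiated B cells, with 47.22 (rank 3716, percentile 84.8), the highest Mcl1 peak of that list, and 95455998 to 95456954 in irradiated non-B cells, with 34 (rank 5013, percentile 76.6). mock B cells had a peak of 112 bp inside it, at 95456607 to 95456718, with a value of 6.3, rank 1283 of 1413. Its best unsplit element, with 3 mismatches, lay at 95456589 to 95456608 and lay beside CA dinucleotide repeats. The stretch is shown so that this repeat can be seen, with the central bases of the element in capitals.
Mcl1 upstream site, chr3:95456559-95456638, mm9 plus strand: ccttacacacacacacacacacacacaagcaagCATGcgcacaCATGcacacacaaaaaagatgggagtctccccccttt

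The mock peak overlapped the last 2 bases of that element. The values of both mock peaks, 6.3 and 6.99, were below 8, the −log10 of the peak-calling limit in the methods of the study. Within the gene, the peak 0.894 kb downstream of the start lay in an intron, with values of 25.25 in irradiated B cells and 21.8 in irradiated non-B cells. A low peak over the last, untranslated part of the transcript had 7.29 and 12.13. Beyond the gene end the widest peak, 1472 bp in irradiated B cells and 1588 bp in irradiated non-B cells, lay 14.5 kb from the start with 29.67 (rank 7376) and 22.55 (rank 8930), and its nearest annotated start was that of Adamtsl4. The site at 10.4 kb had 12.31 in irradiated B cells and 20.38 in irradiated non-B cells. The site at 6.32 kb, listed in irradiated B cells alone with 11.71, held an element with 2 mismatches, and those at 5.53 and 7.52 kb were listed in irradiated non-B cells alone with 12.13 and 16.04. The next peak, 11.1 kb past the gene end and so just outside the window, had 26.27 in irradiated B cells and 27.51 in irradiated non-B cells.

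Bcl2l2 had no peak in its gene body or at its start in any list. The gene (ENSMUSG00000089682.2) occupies 55502214 to 55507071 of chromosome 14, plus strand, and its peaks came only with the extension beyond the 3′ end. The site 10.55 kb from the start was listed at 55512497 to 55512907 in irradiated B cells with a value of 19.37 (rank 12448, percentile 49.2), and at 55512575 to 55512959 in irradiated non-B cells with 26.53 (rank 7161, percentile 66.5). A second site at 11.5 kb was listed in irradiated B cells alone, with 8.13 (rank 23331). Both lay inside Pabpn1, which encodes a poly(A)-binding protein, and within 0.283 kb of an annotated start of Pabpn1. They also lay inside Gm20521, a transcript annotated from the start region of Bcl2l2 through Pabpn1. With the gene body alone, 3 of the 4 genes had a peak in each irradiated list, against 39.8% (B cells) and 38.5% (non-B cells) of all protein-coding genes.

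Counted by promoter, 3 of 4 genes had a peak in irradiated B cells (Bcl2, Bcl2l1 and Mcl1) and 2 of 4 in irradiated non-B cells (Bcl2 and Mcl1), against 39.2% and 38.1% of protein-coding genes. In mock it was 0 of 4 in B cells and 1 of 4 in non-B cells, against 1.95% and 0.947%, and in Trp53-/- spleen 0 of 4, against 0.067%. A peak in the upper 20% of the list was present at 3 of 4 genes in irradiated B cells and at 2 of 4 in irradiated non-B cells, against 16.2% and 16.7% of protein-coding genes. In irradiated B cells these were Bcl2, Bcl2l1 and Mcl1, with 12 such peaks, and in irradiated non-B cells Bcl2l1 and Mcl1, with 3. Bcl2 fell just short in irradiated non-B cells, with its best peak at percentile 79.2. A gene with more peaks is more likely to have 1 in the upper 20%, and the shares of all protein-coding genes do not allow for this.

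The compartments shared 23 of the 42 sites after irradiation, while 12 were listed only in irradiated B cells and 7 only in irradiated non-B cells. Thus 65.7% of the members' irradiated B cells peaks overlapped a irradiated non-B cells peak, where the whole list gave 73.6%, and 76.7% of their irradiated non-B cells peaks overlapped a irradiated B cells peak, where the whole list gave 85.3%. The highest of the peaks found in a single list had a percentile of 54.7, the irradiated non-B cells peak of Bcl2 at 113 kb. Of the 23 shared sites 15 had the higher percentile in B cells, against 59.8% of all pairs. By gene, the number was 9 of 11 at Bcl2, 3 of 4 at Bcl2l1, 3 of 7 at Mcl1 and 0 of 1 at Bcl2l2. The median gap, as B cells minus non-B cells, was 10.8 percentile points at Bcl2, 12.5 at Bcl2l1, -3.64 at Mcl1 and -17.3 at Bcl2l2, and 2.73 over all pairs. With 1 library per group, these gaps have no replicate error to be set against.

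**Figure D2:**
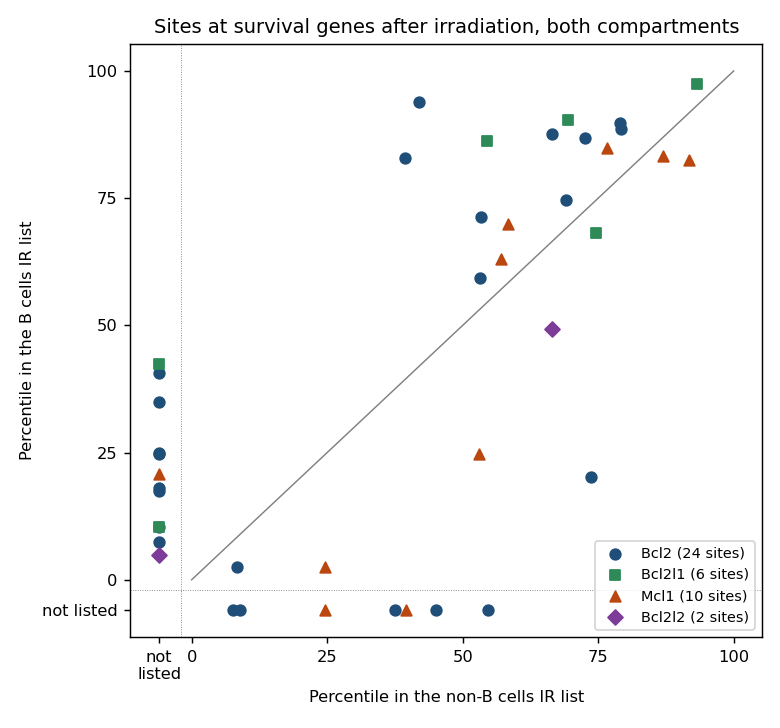
Each symbol is 1 of the 42 sites at Bcl2 (circles), Bcl2l1 (squares), Mcl1 (triangles) and Bcl2l2 (diamonds), with its percentile in irradiated non-B cells (x axis) and irradiated B cells (y axis); the line marks equal percentiles and the outer strips hold sites not listed in a compartment. Most shared Bcl2 and Bcl2l1 sites lie above the line, the single Bcl2 site far below it is the one at 101.5 kb, and sites found in 1 list alone rank at percentile 54.7 or lower.

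An unsplit element with at most 3 mismatches lay within 300 bp of the midpoint in 6 of the 35 irradiated B cells peaks, or 17.1% (exact 95% binomial interval 6.56 to 33.6%), and in 4 of the 30 irradiated non-B cells peaks, or 13.3% (3.76 to 30.7%). The shares over all peaks of these lists were 15.3% and 15.4%, inside both intervals, and over the same windows moved by 10 kb they were 3.21% and 3.31%. The intervals cover counting error only. With a spacer of 1 to 15 bases between the decamers and at most 1 mismatch, 1 peak had an element in each list, the Bcl2 site at 165 kb, against 4.10% and 3.93% of all peaks. That element lay 268 and 171 bp from the midpoints of the irradiated B and non-B cells peaks. It ran past the end of the irradiated non-B cells peak, so the share over whole peaks was 0% there. The remaining elements are printed to show how they differ from that of Bcl2l1, with the central bases of each decamer in capitals. They lie on the mm9 plus strand.
Bcl2 site at 101.5 kb, 3 mismatches, chr1:108509612-108509631: gaaCTAGcttccaCGTGtcc
Bcl2 site at 140 kb, 3 mismatches, chr1:108470639-108470658: agaCATGtctagtCTAGaac
Bcl2 site at 165 kb, spacer of 6 bases, 1 mismatch, chr1:108445937-108445962: aggCTAGctttgtcagtggCTTGctt
Mcl1 site at 6.32 kb, 2 mismatches, chr3:95468916-95468935: aggCTTGcgccaaCATGccc

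Sites with and without an element were found at high and at low ranks. The Bcl2 site with the largest gap in favour of B cells, at 158 kb, and the one with the largest gap in favour of non-B cells, at 101.5 kb, both had an unsplit element with 3 mismatches within 300 bp. At 158 kb it lay -41 and 12 bp from the midpoints of the irradiated B and non-B cells peaks. At 101.5 kb it lay 206 and 280 bp from them, and outside the irradiated B cells peak itself. The high sites of Bcl2 at 31.1 kb, of Bcl2l1 at 21.2 kb and of Mcl1 at its start held none within the limit.

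The other genes of the family, by roles, gave a frame for these ranks. Of the other survival genes, Bcl2a1b and Bcl2a1d had a peak in both irradiated lists, and Bcl2a1a and Bcl2l10 in neither, so 2 of 4 did in each. The Bcl2a1 copies are near-identical, and reads may have been divided between them. Of the effectors, 2 of 3 had a peak in irradiated B cells and 1 of 3 in irradiated non-B cells. Of the BH3-only genes, 6 of 8 had one in each list, and of the other Bcl2-like genes 3 of 4. Of the genes that control Mcl1 protein turnover, 3 of 4 had one in irradiated B cells and 2 of 4 in irradiated non-B cells. The shares over all protein-coding genes were 53.4% and 51.8%, and groups of 3 to 8 genes are too small for these counts to be set apart from them. None of these genes had a peak in Trp53-/- spleen.

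The highest peaks of the family lay at some of the death-promoting genes. Bax, an effector, had a peak of rank 20 in irradiated B cells and 63 in irradiated non-B cells. Bbc3, which encodes Puma, had ranks of 65 and 44, Pmaip1, which encodes Noxa, 67 and 99, and Bcl2l11, which encodes Bim, 79 and 83. The best ranks among the survival genes were 628 and 1463, both at Bcl2l1. The other effector and BH3-only genes ranked below these or had no peak. Bmf stood at 2240 and 2715, Bid at 5761 and 11741, and Bad at 8038 and 9964. Bak1 stood at 15568 in irradiated B cells and had no peak in irradiated non-B cells. Bok, Bik and Hrk had no peak in either irradiated list. Cdkn1a, the cell cycle inhibitor gene used as a reference for rank, stood at 7 and 1, and Mdm2, the p53 feedback inhibitor gene, at 179 and 189. Bax, Bbc3 and Bcl2l11 also had peaks in both mock lists, at ranks 97, 1 and 160 of 1413 in B cells and 41, 1 and 142 of 712 in non-B cells. Pmaip1 had one in mock B cells alone, in the middle of the list at rank 611 of 1413. The 2 mock peaks of Mcl1 were near the bottom of their lists, at ranks 1283 of 1413 and 595 of 712. The median of the best percentile, with genes without a peak set to 0, was 89.4 in irradiated B cells and 85.4 in irradiated non-B cells over the 4 survival genes, 83.7 and 70.4 over the BH3-only genes, and 15.3 and 10.6 over all protein-coding genes. The best percentile is the highest over a gene's peaks, so it rises with their number. Bcl2, Mcl1 and Bcl2l1 had 19, 8 and 6 peaks in irradiated B cells, and many protein-coding genes had none. These medians therefore do not show that peaks at the survival genes ranked higher, peak for peak.

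**Figure D3:**
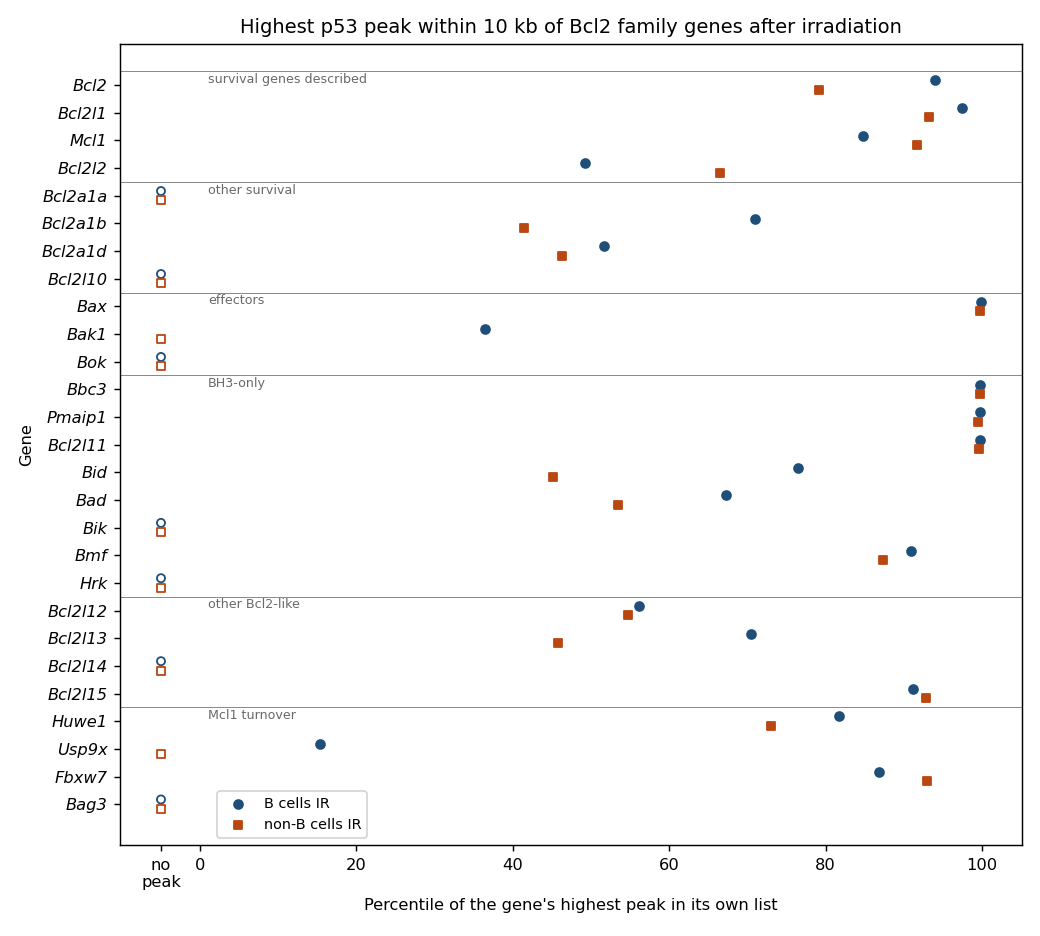
For each Bcl2 family gene (y axis) the percentile of its highest p53 peak within 10 kb in irradiated B cells (circles) and irradiated non-B cells (squares) is shown on the x axis, with open symbols for genes without a peak. Bax, Bbc3, Pmaip1 and Bcl2l11 stand above percentile 99.5 in both lists, and the 4 survival genes at the top lie between 49.2 and 97.4. The other effector and BH3-only genes rank below Bcl2l1 or have no peak.

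The genes most like each member were sought by the best percentile in the 5 lists, with 0 where a list had no peak, and the largest difference over the 5 lists as the measure. For Bcl2 the closest were Erlin2 (largest difference 0.215 points), 1700024N20Rik and Prosc (0.827 each). For Bcl2l1 they were Kynu (0.206), Dapp1 (0.233) and Atp5g2 (0.245). For Bcl2l2 they were 9930021J03Rik and Mlana, both with the same percentiles as Bcl2l2, and Cks2 (0.808). Mcl1 had no such close match, and the nearest were Pcdh7 (7.99), Armc1 (9.27) and Elf1 (9.27). Some of the genes named had equal percentiles among themselves: 9930021J03Rik and Mlana in every list, and Erlin2, 1700024N20Rik and Prosc in irradiated B cells. Equal percentiles arise when genes share a peak or when values tie, so these genes need not be independent matches. The exact match to Bcl2l2 was with genes that share no peak with it, so it rests on tied values.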

How the data were processed

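p53 ChIP-seq peak lists from 5 of 6 libraries were used; no list of the input library was used here. The methods of the study say that the authors masked bases of low quality, aligned reads to mm9 with BWA (0.6.2 per the labels) and called peaks with MACS, 1 list per library of pooled chromatin. The deposited column is taken as −log10 of a peak p-value. Of the values below 40, 54.0, 31.4, 53.6 and 32.1% in mock B cells, irradiated B cells, mock non-B cells and irradiated non-B cells fell, to 2 decimals, on −log10 Poisson tails at a fitted mean or at 1 to 4 reads, against 4.34, 4.58, 4.30 and 4.58% of all possible values. The Trp53-/- list (16.3%) was assumed to share the unit.

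The lowest values were 5.01 to 5.85, so the stated calling limit, 8 on this scale, had not been applied to this column. Values were not normalised between libraries. The smallest peak was 53 to 55 bp in the mock and Trp53-/- lists and 174 to 175 bp in the wild-type IR lists. Peak numbers of the mock and Trp53-/- lists therefore do not stand on an equal footing with those of the wild-type IR lists.

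Starts were made 1-based. A peak belonged to a gene at an overlap of 1 bp or more with the GENCODE vM1 gene body plus 10 kb, to a feature by its midpoint, and to a site with overlapping peaks of other lists. Ties took the best rank. Elements needed C and G at positions 4 and 7 of each decamer. IR pairs were each other's largest overlap. Named were the 4 members, family genes by counts and ranks, with up to 3 of the highest per list, and the 3 most similar genes that share no peak with a member. Bax with 3 BH3-only genes was named on that rule. The remaining effector and BH3-only genes were named so that both groups were complete. The members and lists were chosen with earlier results of these data known. Overlap, rank and element steps were tested on simulated peaks. Alternatives were other windows, value limits, midpoint overlap, merging within 500 bp, width ranks, mismatch limits and search spans. Tools were samtools 1.23.1, matplotlib 3.10.9, pysam 0.24.0, Python 3.11.15, pandas 2.3.3, scipy 1.17.1 and numpy 2.4.6.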

Additional observations from a re-analysis of the deposited data

How the results depend on the processing

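Of 80 recomputed values, 55 stayed within 1.5 times (counts) or within the 95% interval (shares, percentiles), and 25 moved. Counts, shares and ranks have no direction, so a reversal could not arise. For percentiles the interval was a binomial one on the number of peaks in the list. It does not measure the uncertainty of a rank, so these labels only mark the size of a shift. In mock B cells the single gene and single peak became 0 with no extension, with a value of at least 8 and in the upper 20% of the list, and the gene count also 0 for promoters only. In mock non-B cells both became 0 with a value of at least 8 and in the upper 20%. In the upper 20%, peak numbers became 12 in irradiated B cells and 3 in irradiated non-B cells, and the gene count in irradiated non-B cells 2; promoters only gave 2 there as well. These follow from the stricter limits themselves. Ranked by width, the best percentile became 93.3 (Bcl2), 99.2 (Mcl1) and 63.5 (Bcl2l2) in irradiated B cells, and 87.5 (Bcl2), 92.2 (Bcl2l1), 99.5 (Mcl1) and 64.9 (Bcl2l2) in irradiated non-B cells, so Mcl1 then stood first. Its percentiles came from the peak at the window edge, 14.5 kb from its start and nearest to the start of Adamtsl4. At most 2 mismatches gave unsplit shares of 5.71% in irradiated B cells and 3.33% in irradiated non-B cells, and the split share in irradiated non-B cells was 0% over whole peaks. No paired analysis was possible because no group held more than a single library, and none could be left out. Depth is unknown, which limits every statement on an unlisted site.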
